A study of Mus musculus with 2 samples.

Results

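This account covers 55 mouse genes listed for T cells and natural killer (NK) cells of the skin, read in cells sorted by the zinc importer ZIP10. They were chosen by name, for roles in the T cell receptor complex and its signalling, adhesion, cytokine reception, NK receptors, cytotoxic granules and tissue residence. Some are not confined to these cells, such as Ptprc, Cd52, Coro1a and Rac2, which leukocytes of most kinds carry. All 55 were found among the 23233 genes of the deposited table. C57BL/6 mice aged 7 days gave ventral skin, which was digested to single cells, stained with a polyclonal antibody against ZIP10 and with a viability dye, and sorted into ZIP10-positive cells and ZIP10-negative cells. Each sorted population gave 1 RNA-seq library, so no difference has a replicate check or a test, and all describe these 2 libraries. The sample titles name hair follicles as the source while the protocol describes whole ventral skin. The labels name no T cell marker in the sort, and the number of mice behind a library is not given in the sources used here.

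T cells recognise their targets through a receptor whose variable chains are held in a complex with the CD3 chains, which pass the signal inward to the kinases LCK and ZAP-70 and the adaptor LAT. In mice the epidermis houses dendritic epidermal T cells, which carry a gamma-delta receptor, sit among keratinocytes through the integrin CD103, and share receptors such as NKG2D and cytotoxic granule proteins with NK cells. The genes of the gamma-delta receptor chains themselves did not match a symbol of the table and are not analysed here.

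Values are in RPKM, reads per kilobase of transcript per unit of library size, as the authors deposited them. The median gene at 1 RPKM or more in both libraries had a ratio of ZIP10-positive to ZIP10-negative of 1.97, a log2 ratio of 0.98. Globin genes held 3.46% of the RPKM sum of the ZIP10-positive and 59.4% of that of the ZIP10-negative library. Ratios are therefore also given relative to the median gene: the median ratio was divided out in equal parts from the libraries, and log2 values were then taken with a pseudocount of 1 RPKM, which understates the change of low genes. Whole-number ratios of low values and annotated transcript lengths put the depth near 2.78e+06 reads for the ZIP10-positive and 2.71e+06 reads for the ZIP10-negative library. Where a fold is followed by a range, that range is an exact 95% counting interval from the estimated reads of that gene, and it covers counting error only. Slc39a10, the gene of ZIP10 itself, stood at 49.4 RPKM in ZIP10-positive cells, against 11.1 RPKM in ZIP10-negative cells, the direction its labels give. A gene listed at 0 may be a failed estimate, since the broadly used genes Psmg4 and Ndufaf3 were listed at 0 in ZIP10-negative cells, against 69.5 and 24.97 RPKM in ZIP10-positive cells.

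To show the DNA in front of these genes, the 250 bases before the annotated start are printed for the 4 CD3 chain genes, for Cd96 and Nkg7, which had the lowest ratios of RPKM of the NK receptors and of the granule genes with reads in both libraries, and for Sox13, which went the other way. The sequences are from RefSeq, build GRCm38.p6, read 5′ to 3′ on the strand of the gene, and capitals mark matches on either strand to AGGAAG, a core bound by ETS factors, to TGTGGT, a core bound by RUNX factors, or to CAGCTG, an E-box.
Cd3e, chr9:45009612-45009861, minus strand: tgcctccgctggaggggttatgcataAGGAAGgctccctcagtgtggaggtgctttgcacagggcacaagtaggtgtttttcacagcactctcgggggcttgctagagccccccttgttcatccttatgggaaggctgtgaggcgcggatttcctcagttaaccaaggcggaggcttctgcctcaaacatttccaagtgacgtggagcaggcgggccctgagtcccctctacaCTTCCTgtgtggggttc
Cd3g, chr9:44980432-44980681, minus strand: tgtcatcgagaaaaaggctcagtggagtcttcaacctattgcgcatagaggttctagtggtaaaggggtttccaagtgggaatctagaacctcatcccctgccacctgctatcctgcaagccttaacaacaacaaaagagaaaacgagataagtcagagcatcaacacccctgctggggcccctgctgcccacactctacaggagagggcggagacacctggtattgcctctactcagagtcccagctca
Cd3d, chr9:44981536-44981785, plus strand: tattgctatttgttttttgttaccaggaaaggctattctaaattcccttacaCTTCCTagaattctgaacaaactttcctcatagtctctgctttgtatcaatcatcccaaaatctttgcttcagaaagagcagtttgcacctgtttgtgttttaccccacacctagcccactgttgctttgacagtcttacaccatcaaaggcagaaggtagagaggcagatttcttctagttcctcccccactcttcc
Cd247, chr1:165788431-165788680, plus strand: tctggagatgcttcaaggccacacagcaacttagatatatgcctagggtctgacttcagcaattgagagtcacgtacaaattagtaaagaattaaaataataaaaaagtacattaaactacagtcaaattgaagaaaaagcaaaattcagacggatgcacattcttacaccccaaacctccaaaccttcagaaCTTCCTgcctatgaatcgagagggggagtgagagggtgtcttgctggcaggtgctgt
Cd96, chr16:46120249-46120498, minus strand: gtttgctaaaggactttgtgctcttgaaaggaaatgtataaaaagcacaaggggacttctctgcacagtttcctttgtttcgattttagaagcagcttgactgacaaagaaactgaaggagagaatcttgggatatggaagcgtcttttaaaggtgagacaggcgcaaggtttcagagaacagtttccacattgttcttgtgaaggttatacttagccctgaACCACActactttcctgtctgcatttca
Nkg7, chr7:43436888-43437137, plus strand: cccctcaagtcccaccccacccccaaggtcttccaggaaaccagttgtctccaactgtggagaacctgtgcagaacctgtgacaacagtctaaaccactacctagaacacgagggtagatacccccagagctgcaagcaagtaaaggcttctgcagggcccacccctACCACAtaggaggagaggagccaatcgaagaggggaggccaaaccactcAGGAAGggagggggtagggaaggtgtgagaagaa
Sox13, chr1:133424213-133424462, minus strand: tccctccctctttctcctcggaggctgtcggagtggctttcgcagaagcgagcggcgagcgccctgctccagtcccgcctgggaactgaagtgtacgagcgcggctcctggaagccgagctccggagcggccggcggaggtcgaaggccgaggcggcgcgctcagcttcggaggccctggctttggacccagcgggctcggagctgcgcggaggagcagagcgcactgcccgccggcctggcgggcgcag

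Promoters were present for 35 of the 55 genes. AGGAAG lay in a promoter of 24 of these 35 genes, or 68.6%, against 32.3% of all 27025 genes with a promoter of this length. TGTGGT lay in 16 of 35, or 45.7%, against 15.9% of all genes. CAGCTG lay in 4 of 35, or 11.4%, against 14.7% of all genes. Among the printed sequences Cd3e held 2 matches to AGGAAG, Nkg7 held AGGAAG and TGTGGT, and Cd3g and Sox13 held none of the 3 motifs. The median GC content was 47.0% in promoters of the listed genes and 52.4% in all promoters, and its part in these shares was not tested. A gene could have several windows, none of the 3 motifs contains another, and a match is a description and not a bound site.

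Most T cell and NK genes had lower values in the ZIP10-positive library. Of the 55 genes, 46 reached 1 RPKM in a library, and 34 of these were at least 2-fold lower and 3, Klrg1, Gzmb and Sox13, at least 2-fold higher in ZIP10-positive cells relative to the median gene. Over all 12249 genes compared, 11.4% were lower and 14.7% higher by this measure. Since 8 of the 46 reached 1 RPKM in ZIP10-negative cells only and 5 in ZIP10-positive cells only, the 33 genes at 1 RPKM or more in both libraries were also counted. Of these 26 were lower and none higher, against 9.99% lower and 9.98% higher among all 9620 such genes. As deposited, without rescaling, 30 of 46 were 2-fold lower and 5 higher, against 3.55% and 44.1% of all genes.

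The median log2 ratio of the 46 genes was -2.14 relative to the median gene, against 0.094 over all genes compared. Among 5210 genes that reached 10 RPKM in at least 1 library, 28 were T cell or NK genes, and 21 of these 28 lay among the 100 lowest ratios. None lay among the 100 highest. Most of these 28 genes, such as Skap1, Cd96 and Zap70, reached 10 RPKM in ZIP10-negative cells only. A gene that passes in this way is lower in ZIP10-positive cells by the filter itself. Summed over the 55 genes as deposited, the level was 858 RPKM in ZIP10-positive cells, against 2030.1 RPKM in ZIP10-negative cells. Of these sums Cd52, Coro1a and Rac2, found in leukocytes of most kinds, held 492 RPKM in ZIP10-positive cells and 278 RPKM in ZIP10-negative cells. In a mixed population fewer cells of a type and less RNA per cell cannot be told apart.

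**Figure D1:**
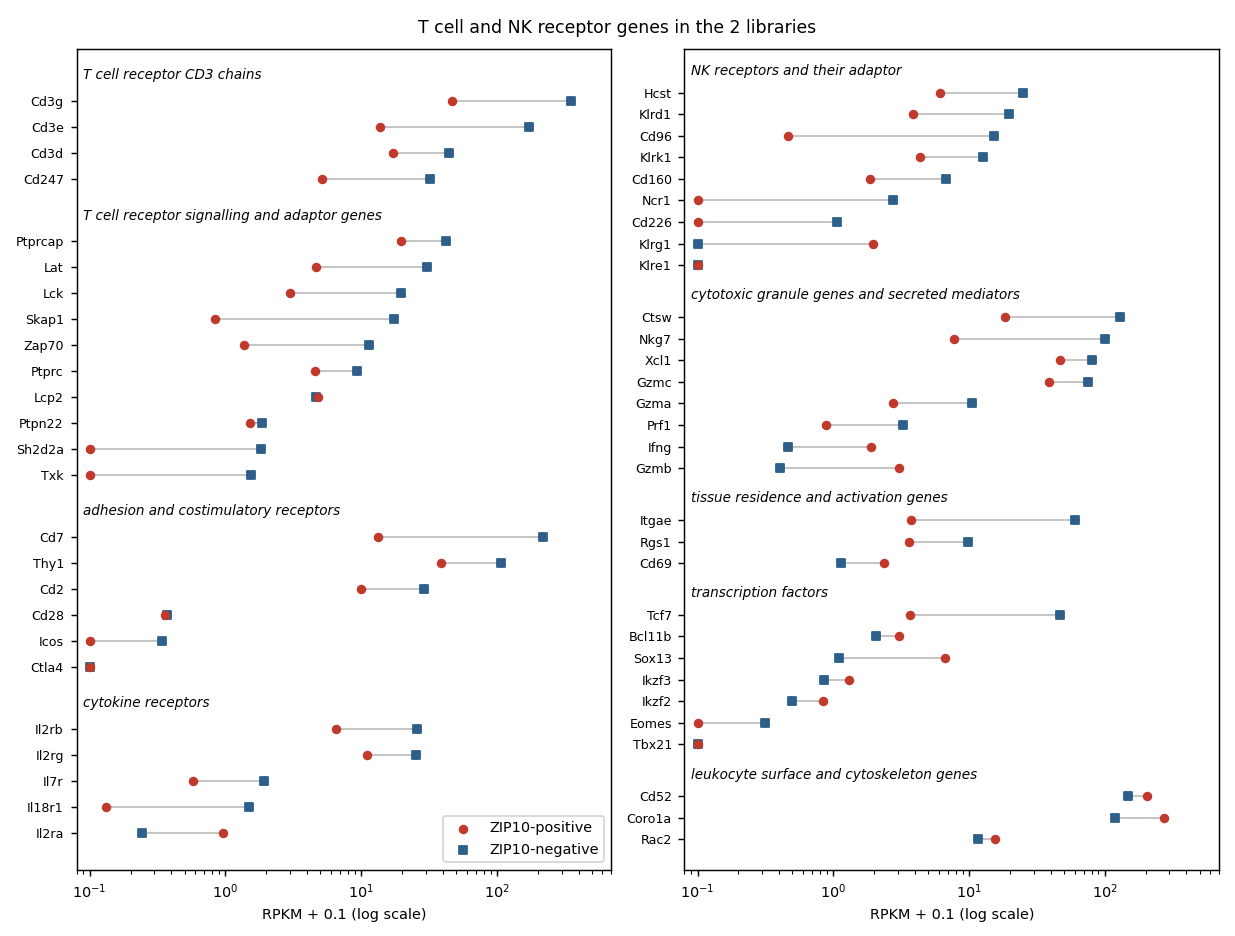
RPKM plus 0.1 on a log axis for each of the 55 genes, grouped by role, with circles for the ZIP10-positive and squares for the ZIP10-negative library, so that genes listed at 0 sit at the left edge. Squares lie right of circles for 39 genes, by the most among those shown for Cd96 and Ncr1, while Cd52, Coro1a and Sox13 have the circle on the right.

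**Figure D2:**
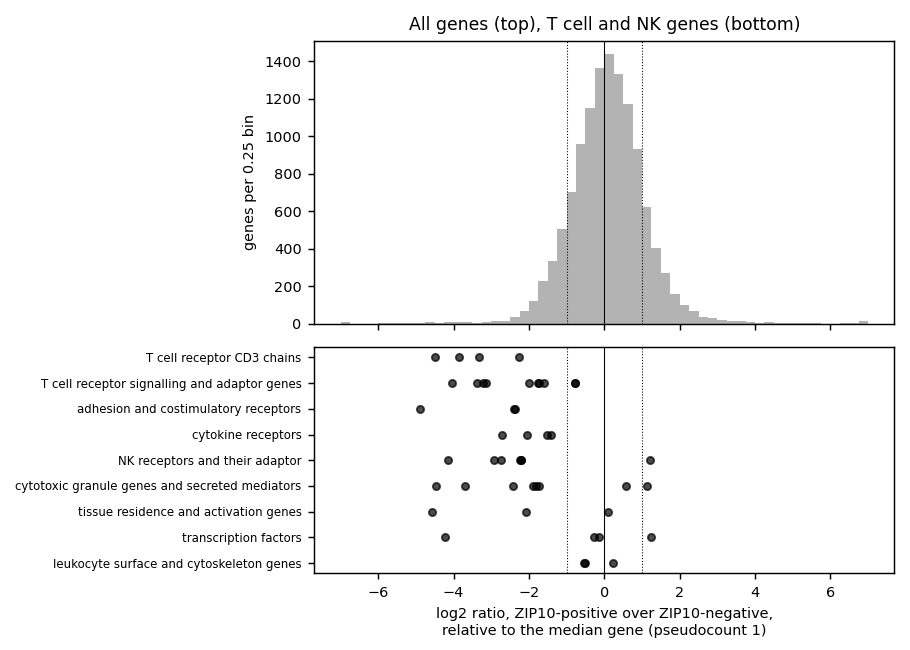
Histogram of the log2 ratio of ZIP10-positive over ZIP10-negative, relative to the median gene, for 12249 genes (top), and the same ratio of the 46 T cell and NK genes that reached 1 RPKM, a point each, by role (bottom); values past 7 are drawn in the end bins and dotted lines mark 2-fold. Most genes lie within 2-fold, while 34 of the 46 points lie left of the lower line.

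The CD3 chains, which carry the signal of the T cell receptor, had the lower value in ZIP10-positive cells in 4 of 4 cases. All 4 were 2-fold lower relative to the median gene, against 9.99% of all genes at 1 RPKM or more in both libraries. Cd3g stood at 46.9 RPKM in ZIP10-positive cells, against 352 RPKM in ZIP10-negative cells, 7.49-fold lower (5.77 to 9.74). Cd3e stood at 13.7 in ZIP10-positive cells against 171 RPKM in ZIP10-negative cells, 12.5-fold lower (9.33 to 17.2). Cd247, the zeta chain, stood at 5.09 in ZIP10-positive cells against 32.2 RPKM in ZIP10-negative cells, 6.32-fold lower (4.28 to 9.77). The 3 chains were all well apart in the 2 libraries, with intervals that exclude equality. Cd3d was the least apart, at 17.2 in ZIP10-positive cells against 44.5 RPKM in ZIP10-negative cells, 2.58-fold lower (1.74 to 3.92), and its interval does not overlap those of the other chains. Cd3d and Cd3g are neighbours on chromosome 9 with opposite strands, as the printed windows show, yet their ratios differed beyond counting error as estimated from transcript lengths.

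Kinases and adaptors next to the receptor were 2-fold lower in 8 of 10 cases relative to the median gene and higher in none. Over all genes compared, 11.4% were lower and 14.7% higher. Of these 10 genes, 3 reached 1 RPKM in ZIP10-negative cells only. Among the 7 at 1 RPKM or more in both libraries, 5 were lower and none higher, against 9.99% and 9.98% of all such genes. Lck, the kinase that first phosphorylates CD3, stood at 2.88 RPKM in ZIP10-positive cells, against 19.4 RPKM in ZIP10-negative cells, 6.75-fold lower (3.95 to 12.7). Zap70, the kinase recruited to phosphorylated CD3, stood at 1.27 in ZIP10-positive cells against 11.4 RPKM in ZIP10-negative cells, 8.93-fold lower (4.08 to 23.2), and rests on 7 and 61 reads. Lat, the membrane adaptor, stood at 4.53 in ZIP10-positive cells against 30.7 RPKM in ZIP10-negative cells, 6.78-fold lower (3.76 to 13.2). These folds lie close to those of Cd3g and Cd247, within counting error. Skap1, an adaptor linking the receptor to integrins, stood at 0.741 in ZIP10-positive cells against 17.3 RPKM in ZIP10-negative cells, but on about 3 reads in ZIP10-positive cells its 23.3-fold lower value has a wide interval (6.57 to 101). Txk, a Tec family kinase, and Sh2d2a, a T cell adaptor, were listed at 0 in ZIP10-positive cells, against 1.44 and 1.72 RPKM in ZIP10-negative cells.

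Genes of this group that many leukocytes use were less far apart. Ptprc, the phosphatase CD45 of all leukocytes, stood at 4.49 in ZIP10-positive cells against 9.27 RPKM in ZIP10-negative cells, 2.07-fold lower (1.52 to 2.84), and Ptprcap, which binds CD45, at 19.6 in ZIP10-positive cells against 41.9 RPKM in ZIP10-negative cells, 2.14-fold lower (1.41 to 3.30). Lcp2, the adaptor SLP-76, was level, at 4.68 RPKM in ZIP10-positive cells, against 4.57 RPKM in ZIP10-negative cells; its log2 ratio was 0.030 as deposited and -0.77 relative to the median gene. Ptpn22, a phosphatase that restrains receptor signalling, stood at 1.42 in ZIP10-positive cells against 1.75 RPKM in ZIP10-negative cells, and its interval of 0.487 to 3.18-fold lower includes equality.

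Surface receptors of the T cell lineage ranged widely. Cd7, an immunoglobulin-family receptor of T and NK cells, had a log2 ratio of -4.88 relative to the median gene, the lowest of the set with a pseudocount of 1. With a pseudocount of 0.1 it was -5.01, and Cd96 at -5.89, Skap1 at -5.28 and Ncr1 at -5.25 lay below it. It stood at 13.3 RPKM in ZIP10-positive cells, against 219 RPKM in ZIP10-negative cells, 16.5-fold lower (11.3 to 24.9). Cd2, an adhesion receptor, stood at 9.93 in ZIP10-positive cells against 28.98 RPKM in ZIP10-negative cells, 2.92-fold lower (1.84 to 4.75). Thy1, which skin fibroblasts can also carry, stood at 38.5 in ZIP10-positive cells against 107 RPKM in ZIP10-negative cells, 2.78-fold lower (2.31 to 3.34). The costimulatory genes were near the limit of this depth. Cd28 stood at 0.262 in ZIP10-positive cells against 0.269 RPKM in ZIP10-negative cells, a ratio that equal numbers of reads would give, Icos was listed at 0 in ZIP10-positive cells against 0.241 RPKM in ZIP10-negative cells, and Ctla4 was listed at 0 in both libraries.

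Among cytokine receptors the shared chains were the abundant ones. Il2rb, the chain shared by the receptors of interleukins 2 and 15, stood at 6.48 RPKM in ZIP10-positive cells, against 25.7 RPKM in ZIP10-negative cells, 3.96-fold lower (2.63 to 6.14). Il2rg, the common gamma chain, stood at 10.97 in ZIP10-positive cells against 25.4 RPKM in ZIP10-negative cells, 2.31-fold lower (1.599 to 3.39). Il7r, the receptor of interleukin 7, stood at 0.478 in ZIP10-positive cells against 1.84 RPKM in ZIP10-negative cells on 4 and 15 reads, 3.84-fold lower (1.22 to 15.9). Il18r1, a chain of the interleukin 18 receptor, stood at 0.0325 in ZIP10-positive cells against 1.39 RPKM in ZIP10-negative cells, with too few reads for an interval. Il2ra, the high-affinity chain that activated T cells gain, was on the other side at 0.864 in ZIP10-positive cells against 0.141 RPKM in ZIP10-negative cells, below 1 RPKM in both libraries, with an interval for the ratio of 0.710 to 269 that includes equality.

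Of 7 NK-type receptor genes that reached 1 RPKM in a library, 6 had the lower value in ZIP10-positive cells. Of these 7, 2 reached 1 RPKM in ZIP10-negative cells only and 1 in ZIP10-positive cells only. The 4 at 1 RPKM or more in both libraries were all 2-fold lower relative to the median gene, against 9.99% of all such genes. Cd96, a receptor for nectin-family ligands, stood at 0.363 RPKM in ZIP10-positive cells, against 15.1 RPKM in ZIP10-negative cells on 2 and 81 reads, 41.5-fold lower (11.1 to 349). Klrd1, the CD94 chain, stood at 3.80 in ZIP10-positive cells against 19.5 RPKM in ZIP10-negative cells, 5.13-fold lower (1.72 to 20.6). Klrk1, which encodes NKG2D, stood at 4.25 in ZIP10-positive cells against 12.6 RPKM in ZIP10-negative cells, 2.97-fold lower (1.52 to 5.98). The NKG2D adaptor DAP10 had the same direction, with Hcst at 6.04 in ZIP10-positive cells against 24.8 RPKM in ZIP10-negative cells, 4.10-fold lower (1.11 to 22.6). Cd160, which binds the herpesvirus entry mediator, stood at 1.75 in ZIP10-positive cells against 6.70 RPKM in ZIP10-negative cells, 3.82-fold lower (1.93 to 8.24). Ncr1, the NK receptor NKp46, was listed at 0 in ZIP10-positive cells against 2.63 RPKM in ZIP10-negative cells, and Cd226 at 0 in ZIP10-positive cells against 0.968 RPKM in ZIP10-negative cells. Klrg1, an inhibitory receptor that binds cadherins, was the reverse, at 1.86 RPKM in ZIP10-positive cells and listed at 0 in ZIP10-negative cells, and Klre1 was listed at 0 in both. Killer lectin-like receptors resemble one another in sequence, and reads may have been split among them, which makes each value uncertain.

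Cytotoxic granule genes and mediators were 2-fold lower in 6 of 8 cases and higher in 1 relative to the median gene. Over all genes compared, 11.4% were lower and 14.7% higher. Of these 8, 1 reached 1 RPKM in ZIP10-negative cells only and 2 in ZIP10-positive cells only. The 5 at 1 RPKM or more in both libraries were all lower, against 9.99% of all such genes. Nkg7, a granule membrane protein, stood at 7.67 RPKM in ZIP10-positive cells, against 101 RPKM in ZIP10-negative cells, 13.1-fold lower (7.61 to 27.0). Ctsw, a cathepsin of cytotoxic cells, stood at 18.2 in ZIP10-positive cells against 129 RPKM in ZIP10-negative cells, 7.12-fold lower (5.31 to 9.71). Gzma, granzyme A, stood at 2.66 in ZIP10-positive cells against 10.4 RPKM in ZIP10-negative cells, 3.90-fold lower (1.41 to 13.3), and Prf1, perforin, at 0.776 in ZIP10-positive cells against 3.18 RPKM in ZIP10-negative cells, 4.10-fold lower (1.32 to 16.9). Gzmc, granzyme C, and Xcl1, a chemokine of T and NK cells, were the least apart of the abundant genes of this group. Gzmc stood at 38.7 in ZIP10-positive cells against 74.6 RPKM in ZIP10-negative cells, 1.93-fold lower (1.45 to 2.59), and Xcl1 at 47.01 in ZIP10-positive cells against 80.3 RPKM in ZIP10-negative cells, 1.71-fold lower (1.11 to 2.66), and both were more than 2-fold lower relative to the median gene only.

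Granzyme B and interferon gamma were on the other side. Gzmb stood at 2.96 RPKM in ZIP10-positive cells, against 0.304 RPKM in ZIP10-negative cells on 10 reads and 1 read, a ratio of 9.75 (1.39 to 423). Relative to the median gene the interval becomes 0.704 to 215 and includes equality. Ifng stood at 1.79 in ZIP10-positive cells against 0.367 RPKM in ZIP10-negative cells on 5 reads and 1 read, a ratio of 4.88 (0.546 to 231), which includes equality as deposited as well. Granzyme genes are similar in sequence, so reads may be divided between them.

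Itgae, which encodes the CD103 chain that binds E-cadherin on keratinocytes, stood at 3.66 RPKM in ZIP10-positive cells, against 60.3 RPKM in ZIP10-negative cells, 16.5-fold lower (11.8 to 23.7). Rgs1, a brake on chemokine receptor signalling, stood at 3.51 in ZIP10-positive cells against 9.81 RPKM in ZIP10-negative cells, 2.80-fold lower (1.86 to 4.30). Cd69, an early activation marker that also retains cells in tissue, stood at 2.28 in ZIP10-positive cells against 1.04 RPKM in ZIP10-negative cells on 9 and 4 reads, a ratio of 2.19 (0.613 to 9.75). Scaled to the median gene its log2 ratio was 0.094, and with the 50 most abundant genes left out of the scaling it was -0.12. The residence markers differed among themselves, with Itgae among the lowest of the set and Cd69 near the median gene.

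The transcription factors split, and which cells of the mixed populations their reads came from was not tested. Tcf7, the T cell factor TCF1, stood at 3.56 RPKM in ZIP10-positive cells, against 46.8 RPKM in ZIP10-negative cells, 13.2-fold lower (8.18 to 22.1). Sox13, known in mice from gamma-delta T cell development, stood at 6.58 in ZIP10-positive cells against 0.996 RPKM in ZIP10-negative cells on 61 and 9 reads, a ratio of 6.61 (3.26 to 15.1). Relative to the median gene its ratio was 3.35 (1.66 to 7.68), so Tcf7 and Sox13 lay on opposite sides of the median gene. Bcl11b, a factor of T lineage commitment, stood at 2.97 in ZIP10-positive cells against 1.96 RPKM in ZIP10-negative cells and Ikzf3, Aiolos, at 1.199 in ZIP10-positive cells against 0.756 RPKM in ZIP10-negative cells. Both intervals include equality, and both log2 ratios are above 0 as deposited and below 0 relative to the median gene, at -0.27 and -0.15. Ikzf2, Helios, stood at 0.740 in ZIP10-positive cells against 0.399 RPKM in ZIP10-negative cells. Of the factors that direct NK and cytotoxic programs, Tbx21 was listed at 0 in both libraries and Eomes at 0 in ZIP10-positive cells against 0.213 RPKM in ZIP10-negative cells.

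Cd52, Coro1a and Rac2, a surface protein, an actin regulator and a small GTPase found in leukocytes of most kinds, were the members higher in ZIP10-positive cells as deposited at 10 RPKM or more. Coro1a stood at 273 RPKM in ZIP10-positive cells, against 118 RPKM in ZIP10-negative cells, a ratio of 2.31 (2.004 to 2.67). Scaled to the median gene its log2 ratio was 0.23, and with the 50 most abundant genes left out of the scaling it was -0.12. Cd52 stood at 204 in ZIP10-positive cells against 148 RPKM in ZIP10-negative cells and Rac2 at 15.5 in ZIP10-positive cells against 11.6 RPKM in ZIP10-negative cells, and both lay below the median gene, at log2 ratios of -0.51 and -0.53. None of these 3 genes was 2-fold lower relative to the median gene.

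**Figure D3:**
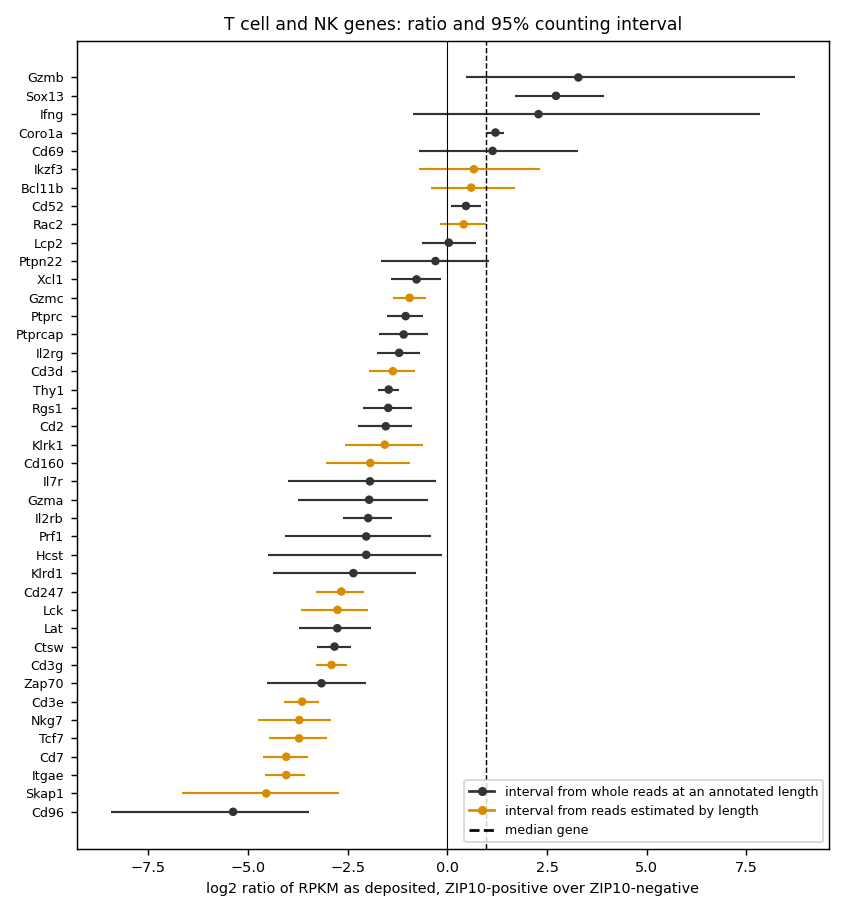
Log2 ratio of deposited RPKM, ZIP10-positive over ZIP10-negative, with exact 95% counting intervals, for the T cell and NK genes that reached 1 RPKM and have reads in both libraries; the dashed line marks the median gene. The intervals run from Sox13 and Gzmb on the right to Cd96 and Skap1 on the left, and most lie left of the dashed line.

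Counting intervals could be formed for all but 1 of the 45 genes above 0 in both libraries. Relative to the median gene, 33 lay wholly on the lower side, 2 wholly on the higher side, Sox13 and Coro1a, and 9 held equality. The interval of Coro1a, 1.02 to 1.35, came close to equality and takes the scaling as exact. Its log2 ratio was -0.12 with the 50 most abundant genes left out of the scaling and -0.19 without globin genes and Rn45s. As deposited, 30 lay wholly on the lower side, 4 on the higher side and 10 held equality. Intervals were not formed for all genes, so these counts have no share over all genes beside them.

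Several listed genes overlap another protein-coding gene in RefSeq, and the sources used here do not state whether strand was used in counting. Skp1a, named Skp1 in RefSeq, which overlaps Tcf7, stood at 236 RPKM in ZIP10-positive cells, against 171 RPKM in ZIP10-negative cells. Gsg2, named Haspin in RefSeq, which overlaps Itgae, stood at 3.03 in ZIP10-positive cells against 0.706 RPKM in ZIP10-negative cells, and Fibp, which overlaps Ctsw, at 13.8 in ZIP10-positive cells against 10.5 RPKM in ZIP10-negative cells. Each of these partners was higher in ZIP10-positive cells as deposited, the opposite of the listed gene it overlaps. Relative to the median gene, Skp1a at a log2 ratio of -0.51 and Fibp at -0.54 lay below it, as did Tcf7 and Ctsw. Gsg2 lay above it, at 0.67. The part of overlapping reads in these values was not tested. Without the 5 genes that overlap another one, 29 were 2-fold lower and 3 higher, scaled to the median gene, an alternative chosen after the data were seen.

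Genes of T cell receptor signalling outside the set were mixed. Of 37 in the table, 31 reached 1 RPKM in a library. Scaled to the median gene, 11 of these were at least 2-fold lower and 2 higher, against 11.4% and 14.7% of all genes compared. Of the 19 at 1 RPKM or more in both libraries, 6 were lower and 1 higher, against 9.99% and 9.98% of all such genes. The median log2 ratio of the 31 genes was -0.58 on that scale and 0.21 as deposited. Trat1, which stabilises the receptor complex, had the highest mean of the libraries among them, at 3.74 RPKM in ZIP10-positive cells, against 59.1 RPKM in ZIP10-negative cells, 15.8-fold lower (11.7 to 21.8). Csk, a kinase that restrains LCK, stood at 40.9 in ZIP10-positive cells against 18.3 RPKM in ZIP10-negative cells, Ptpn6, a phosphatase of blood cells, at 20.9 in ZIP10-positive cells against 16.2 RPKM in ZIP10-negative cells, and Stim1, a calcium sensor of many cell types, at 17.6 in ZIP10-positive cells against 18.1 RPKM in ZIP10-negative cells, each less than 2-fold from the median gene on the scale with the pseudocount. Without the pseudocount Stim1 was 2.03-fold lower relative to the median gene. In log2 ratio relative to the median gene, Trat1 at -4.52 lay close to Cd3e at -4.49, and Csk, Ptpn6 and Stim1 did not.

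Of the 10 markers of alpha-beta T cells found, 3 reached 1 RPKM in a library and 7 did not. The co-receptor gene Cd8a stood at 0.372 in ZIP10-positive cells against 1.14 RPKM in ZIP10-negative cells, and Cd4 at 0 in ZIP10-positive cells against 0.509 RPKM in ZIP10-negative cells. Foxp3, of regulatory T cells and named after its values were seen, was listed at 0 in both. Lef1, which hair follicle cells also use, stood at 18.8 in ZIP10-positive cells against 18.95 RPKM in ZIP10-negative cells.

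In the list of further gamma-delta and epidermal T cell genes, 5 of the 20 that reached 1 RPKM were 2-fold lower and none higher, scaled to the median gene. Over all genes compared, 11.4% were lower and 14.7% higher. Of the 17 at 1 RPKM or more in both libraries, 4 were lower and none higher, against 9.99% and 9.98% of all such genes. Cd163l1, a scavenger receptor-like gene of gamma-delta T cells, stood at 1.33 RPKM in ZIP10-positive cells, against 18.9 RPKM in ZIP10-negative cells, 14.3-fold lower (7.95 to 28.2). The interleukin 17 genes Il17a and Il17f and the receptor gene Il23r, also named after their values were seen, were listed at 0 in both. The most abundant genes of the list are used by many skin cells, and Id3 stood at 193 in ZIP10-positive cells against 53.6 RPKM in ZIP10-negative cells, Id2 at 60.5 in ZIP10-positive cells against 34.1 RPKM in ZIP10-negative cells and Fgf7 at 46.6 in ZIP10-positive cells against 26.999 RPKM in ZIP10-negative cells. Of these Id3 was above the median gene and Id2 and Fgf7 below it, all within 2-fold.

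Of 21 further killer-type receptor and granule genes that reached 1 RPKM, 10 were 2-fold lower and 3 higher, scaled to the median gene. Over all genes compared, the shares were 11.4% and 14.7%. Of these 21, 6 reached 1 RPKM in ZIP10-negative cells only and 4 in ZIP10-positive cells only. Of the 11 at 1 RPKM or more in both libraries, 4 were lower and 1 higher, against 9.99% and 9.98% of all such genes. Klrb1b, a lectin-like receptor of NK and T cells, stood at 0.984 RPKM in ZIP10-positive cells, against 20.99 RPKM in ZIP10-negative cells, 21.3-fold lower (6.10 to 93.9). Itgb7, the partner chain of CD103, stood at 19.3 in ZIP10-positive cells against 30.6 RPKM in ZIP10-negative cells, only 1.58-fold lower (1.26 to 1.98) beside the 16.5-fold of Itgae. Itgb2, the integrin chain of leukocytes in general, lay on the other side, at 14.996 in ZIP10-positive cells against 1.66 RPKM in ZIP10-negative cells. Of the 41 genes of this list, 13 were listed at 0 in both libraries.

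Ligands and partners of these receptors lay close to the median gene. Of 19 that reached 1 RPKM, 3 were 2-fold lower and 2 higher relative to it, against 11.4% and 14.7% of all genes compared. Of the 10 at 1 RPKM or more in both libraries, none was 2-fold lower or higher. The median log2 ratio of the 19 genes was 0.070, and -0.25 with the 50 most abundant genes left out of the scaling. Cdh1, the E-cadherin that CD103 binds, stood at 38.7 RPKM in ZIP10-positive cells, against 18.5 RPKM in ZIP10-negative cells, a log2 ratio of 0.088 relative to the median gene, while that of Itgae was -4.57. Cd48, the ligand of CD2, stood at 18.4 in ZIP10-positive cells against 9.81 RPKM in ZIP10-negative cells, Pvrl2, a nectin, at 22.6 in ZIP10-positive cells against 18.7 RPKM in ZIP10-negative cells and Tnfrsf14, the partner of CD160, at 6.78 in ZIP10-positive cells against 2.67 RPKM in ZIP10-negative cells. H2-T23, the class I molecule read by CD94 receptors, stood at 89.9 in ZIP10-positive cells against 45.2 RPKM in ZIP10-negative cells. The cytokine gene Il15 stood at 3.02 in ZIP10-positive cells against 0 RPKM in ZIP10-negative cells, and Il7 at 0 in ZIP10-positive cells against 1.30 RPKM in ZIP10-negative cells, each 0 as listed. Skint1, a keratinocyte gene needed for the epidermal T cells of mice, stood at 1.36 in ZIP10-positive cells against 0.349 RPKM in ZIP10-negative cells on 4 reads and 1 read, and the interval of its ratio, 0.386 to 192, includes equality. Skint9, of the same family, went the other way, at 0.307 in ZIP10-positive cells against 3.15 RPKM in ZIP10-negative cells on 1 read and 10 reads, 10.3-fold lower (1.46 to 445). Of the 19 ligands and partners, 14 lay within 2-fold of the median gene on the scale with the pseudocount.

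**Figure D4:**
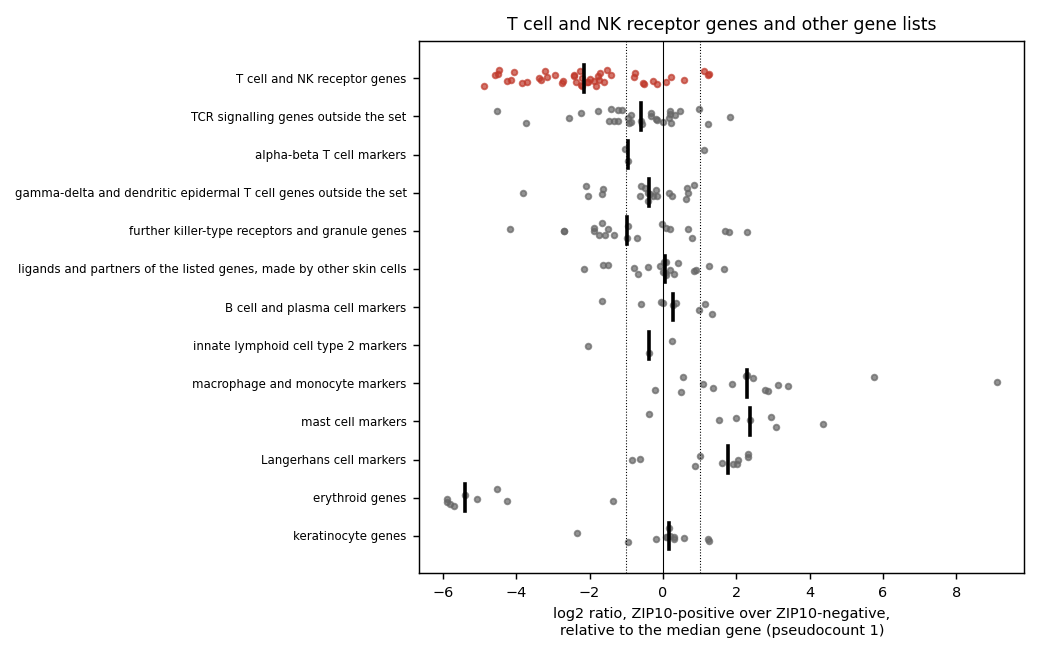
Log2 ratio of ZIP10-positive over ZIP10-negative relative to the median gene, a point per gene that reached 1 RPKM, for the T cell and NK receptor genes (top row) and 12 other lists; black bars are medians and dotted lines mark 2-fold. The T cell and NK genes have a median of -2.14, between the erythroid list at -5.40 and the remaining lists, whose medians run from -0.98 to 2.38.

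Markers of other cell types also differed between the libraries. In ZIP10-positive cells 12 of 15 macrophage and monocyte markers were 2-fold higher relative to the median gene and none lower. Of these 15, 9 reached 1 RPKM in ZIP10-positive cells only. Of the 6 at 1 RPKM or more in both libraries, 3 were higher and none lower, against 9.98% and 9.99% of all such genes. The summed level of the macrophage and monocyte markers was 1479 in ZIP10-positive cells against 152 RPKM in ZIP10-negative cells. Lyz2 alone held 772 RPKM of the sum in ZIP10-positive cells. Lyz2, C1qa, C1qb, C1qc and Ms4a7 were listed at 0 in ZIP10-negative cells. Mast cell markers were higher in 6 of 7, with a sum of 309 in ZIP10-positive cells against 14.6 RPKM in ZIP10-negative cells. Langerhans cell markers were higher in 7 of 10, with a sum of 1326 in ZIP10-positive cells against 325 RPKM in ZIP10-negative cells. Cd74, H2-Aa, H2-Ab1 and H2-Eb1 held most of the sum in ZIP10-positive cells. Whether their reads came from Langerhans cells was not tested. Among markers at 1 RPKM or more in both libraries, 4 of 5 mast cell and 5 of 7 Langerhans cell markers were higher. Erythroid genes were lower in 9 of 9, and in 7 of 7 at 1 RPKM or more in both libraries. Their sum was 16388 in ZIP10-positive cells against 284092 RPKM in ZIP10-negative cells, so the T cell and red cell transcripts were both low in the same library. Keratinocyte genes were higher in 2 of 12 and lower in 1, near the shares of all genes compared. Their sum was 2776 in ZIP10-positive cells against 919.7 RPKM in ZIP10-negative cells. All these sums are as deposited, where the median gene had a ratio of 1.97. The part of these other cells in the values of Coro1a, Cd52, Rac2, Ptprc and other genes shared among leukocytes was not tested.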

How the data were processed

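The authors deposited RPKM values for 1 library per group, in a table whose name gives the unit. Per the submitters' processing notes, the tools were TopHat, Cufflinks and cutadapt, on build mm9. Versions, settings, annotation and strand use: not given in the sources used here. GENCODE vM21 and RefSeq (GRCm38) served for lengths, overlaps and promoter sequences.

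Genes that reached 1 RPKM in either library were compared as log2((positive + 1)/(negative + 1)), as deposited and after scaling. For the scaling, ZIP10-positive values were divided and ZIP10-negative values multiplied by the square root of 1.97, the median ratio of genes that reached 1 RPKM in both, before the pseudocount of 1 was added. The shift of a low gene is therefore smaller than that of a high one. Folds with intervals carry no pseudocount. A difference of 2-fold or more was counted by size alone, since 1 library per group allows no test. Reads per gene came from whole-number ratios up to 400 reads (tolerance 0.0012%) at the fewest reads that gave an annotated length within 10% (27 genes), or else from the estimated depth and the median transcript length (18 genes), with 199 bases taken off each length as an assumption. Depth came from 109 genes with 1 transcript, of which 33.9% lay near the most frequent value. The exact binomial intervals follow from these reads, which carry no molecular identifiers. The listed genes and all gene lists were chosen with earlier results of these data known; all listed genes may be named, with up to 6 of the most abundant genes and any ligand at 1 RPKM or more of the other lists, and exceptions are marked. Motifs were searched in the 250 bases before each start. Python 3.11.15, pandas 2.3.3, numpy 2.4.6, scipy 1.17.1 and matplotlib 3.10.9 were used, and the calculation was tested on simulated data. Alternatives changed the pseudocount, the filter, the scaling, the treatment of genes listed at 0 and of overlapping genes. Some genes of the other lists are not reported here.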

Additional observations from a re-analysis of the deposited data

How the results depend on the processing

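No paired analysis was possible because each group has 1 library, and leaving out a library was likewise not possible. The 34 genes 2-fold lower relative to the median gene were all below 0 under each alternative that gave them a value. Of these 34, 30 stayed 2-fold lower as deposited, without Ptprc, Il7r, Gzmc and Xcl1, and 28 with a pseudocount of 5. The median log2 ratio of the set was -1.35 as deposited and -2.84 with a filter of 10 RPKM. Most listed genes kept by that filter passed it in ZIP10-negative cells only, which favours low ratios. The number of listed genes 2-fold higher was 5 as deposited, 1 with scaling that left out globin genes and Rn45s, 0 with a pseudocount of 5 and 0 with a filter of 10 RPKM. Over all genes, 1799 were higher and 1398 lower when scaled to the median gene. This became 5405 higher and 435 lower as deposited, 1188 and 2151 with scaling outside the 50 most abundant genes, 1101 and 2352 without globin genes and Rn45s, 687 and 369 with a pseudocount of 5, and 1004 and 401 with a filter of 10 RPKM. The cause of these shifts was not tested, other than that a higher filter leaves fewer genes. At this depth 1 read on a 2000-base transcript is worth 0.200 RPKM, so genes below 1 RPKM rest on a few reads.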

Other observations

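Of 9 B cell markers that reached 1 RPKM, 2 were 2-fold higher and 1 lower, scaled to the median gene. Over all genes compared, the shares were 14.7% and 11.4%. Of the 6 at 1 RPKM or more in both libraries, none was higher and 1 was lower. Cd79a, a signalling chain of the B cell receptor, stood at 34.5 RPKM in ZIP10-positive cells, against 8.52 RPKM in ZIP10-negative cells, a ratio of 4.05. Its partner Cd79b stood at 21.3 in ZIP10-positive cells against 16.7 RPKM in ZIP10-negative cells and lay below the median gene, at a log2 ratio of -0.59. Ebf1, a B lineage factor that stromal cells also use, stood at 11.1 in ZIP10-positive cells against 19.3 RPKM in ZIP10-negative cells. The median log2 ratio of the list was 0.28 and turned to -0.011 without globin genes and Rn45s in the scaling.

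Of the markers of type 2 innate lymphoid cells, 3 of 10 reached 1 RPKM in a library. Gata3, which follicle cells also use, stood at 27.5 RPKM in ZIP10-positive cells, against 11.6 RPKM in ZIP10-negative cells. Il13 stood at 0.358 in ZIP10-positive cells against 2.94 RPKM in ZIP10-negative cells, a log2 ratio of -2.03 relative to the median gene.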
